A study of Mus musculus with 22 samples.

Results

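The thermogenic genes of brown and beige fat were followed in white adipose tissue (WAT) of mice after thyroid hormone (TH). The set held 9 genes, Ucp1, Ppargc1a, Ppargc1b, Prdm16, Cidea, Elovl3, Cox8b, Cox7a1 and Otop1, taken by name as the usual markers of heat-producing adipocytes, of 47643 rows in the WAT count table. All 9 had a mean normalised count above 10 in WAT and were tested among 17928 genes, and 4 of them, Ppargc1a, Ppargc1b, Prdm16 and Cidea, also passed in striatum, among 15827 genes. RNA-seq was performed on 12 WAT libraries, 4 for each of PTU, TH 6 h and TH 24 h, and on 10 striatum libraries, 2 for PTU and 4 each for TH 12 h and TH 24 h. All were labelled as wild-type male C57BL/6J mice of 8 weeks.

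The PTU groups are the controls. Their labels give 2 weeks of propylthiouracil, a drug that blocks the synthesis of thyroid hormone, and call the animals hypothyroid. The labels of the TH groups name the hormone and the time only. The series' description presents both tissues as coming from PTU-treated mice. The study's overview gives, for WAT, PTU in the food and then a single intraperitoneal injection of T3 and T4, the active hormone and its precursor, and lists no PTU for striatum. The fat depot is not named, and no cell type was isolated. Nothing states that replicates came from separate animals, so the p-values below measure the spread between these libraries.

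Brown adipocytes, and the beige adipocytes that arise within white depots, are rich in mitochondria and oxidise fatty acids to make heat. Their defining protein, UCP1, lets protons leak across the inner mitochondrial membrane, so that respiration runs without making ATP. Transcription of Ucp1 is driven by noradrenaline through cyclic AMP and by T3 through its nuclear receptors, and the deiodinase DIO2 makes T3 from T4 inside the cell. Because whole tissue was sequenced, a higher count per cell and a larger share of thermogenic cells cannot be told apart for any value below.

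Ucp1 and Ppargc1a had the largest changes of the set at 6 h, so the sequence around their start sites is shown, from the RefSeq promoter table on GRCm38.p6 (250 bases before and 50 after the start, in the direction of the gene). The Ucp1 window is chr8:83290098-83290397 on the plus strand and the Ppargc1a window is chr5:51567676-51567975 on the minus strand. Capitals mark AGGTCA, the hexamer that thyroid hormone receptors read, and TGACG, the core of the cyclic AMP response element, on either strand (CGTCA is TGACG on the other strand).
Ucp1: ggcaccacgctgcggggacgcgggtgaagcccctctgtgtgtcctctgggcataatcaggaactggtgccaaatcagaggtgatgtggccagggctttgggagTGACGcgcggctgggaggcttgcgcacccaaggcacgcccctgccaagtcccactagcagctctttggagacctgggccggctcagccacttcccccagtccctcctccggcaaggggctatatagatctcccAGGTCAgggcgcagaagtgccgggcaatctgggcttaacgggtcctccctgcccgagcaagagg
Ppargc1a: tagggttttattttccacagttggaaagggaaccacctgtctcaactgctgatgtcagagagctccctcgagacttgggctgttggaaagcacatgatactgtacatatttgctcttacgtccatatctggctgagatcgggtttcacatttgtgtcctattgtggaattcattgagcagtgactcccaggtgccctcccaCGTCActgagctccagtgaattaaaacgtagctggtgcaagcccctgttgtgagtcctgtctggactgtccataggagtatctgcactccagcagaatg
The Ucp1 window holds TGACG from position -147 and AGGTCA from position -14, counted from the start site, and the Ppargc1a window holds CGTCA from -49. Among all 32851 windows of this length in the table, 16.3% hold AGGTCA and 20.8% hold TGACG on either strand, so either motif alone is common. The windows of Otop1, Prdm16, Cox7a1 and Cox8b, the other 4 of the 6 thermogenic genes in the table, hold neither. A direct repeat of AGGTCA spaced by 4 bases, the receptors' usual full site, is in none of the 6, and in 0.0152% of all windows.

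Total counts per library ranged from 17285956 to 26946573 in WAT and from 8044701 to 10147160 in striatum. The WAT libraries expressed all 10 white adipocyte markers examined. Zic1, which marks classical brown fat, lay between 0 and 18.3 normalised counts, Wt1, a marker of visceral fat, between 0 and 1.61, and Tcf21 was at 0 in every WAT library. These genes do not stand for the lists they come from. In WAT, 6 of 8 markers of classical brown depots and 7 of 10 depot markers had a mean normalised count above 10. Skeletal muscle RNA set some libraries apart. The summed level of 23 muscle markers was 14137 and 33907 CPM (counts scaled to the same library total) in PTU replicates 1 and 4 against 243 and 319 in PTU replicates 2 and 3, ranged from 114 to 6108 at TH 6 h (highest in replicate 3) and from 2505 to 17948 at TH 24 h. The 9 markers of stratified epithelium summed to 10.7 to 42.9 CPM in PTU, 8.02 to 155 at TH 6 h and 7.41 to 9.79 at TH 24 h. Of the 8 tested, 0 had a positive log2 change from 6 h to 24 h (median -5.79), and 1 did from PTU to 24 h (median -4.74). Fits with these markers as a covariate therefore cannot separate them from time. In striatum, 6 of the 10 libraries had 22070 to 33693 normalised counts of Xist, against 2.73 to 17.8 in the other 4, although every animal was labelled male.

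In WAT, TH was followed by higher levels of 4 of the 9 genes at 6 h and 6 of the 9 at 24 h, and none was called lower. Across all genes tested, the called share was 7.23% in either direction at 6 h (4.18% higher) and 17.1% at 24 h (7.45% higher). Ucp1, Ppargc1a, Ppargc1b and Otop1 were called higher at both times, Cox8b and Cox7a1 at 24 h, and Cidea, Elovl3 and Prdm16 at neither. The median log2 change of the 9 genes was 0.93 at 6 h and 1.28 at 24 h, beside -0.03 and -0.00 over all genes tested. Both times were set against the same 4 PTU libraries, so they are not independent of each other.

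**Figure D1:**
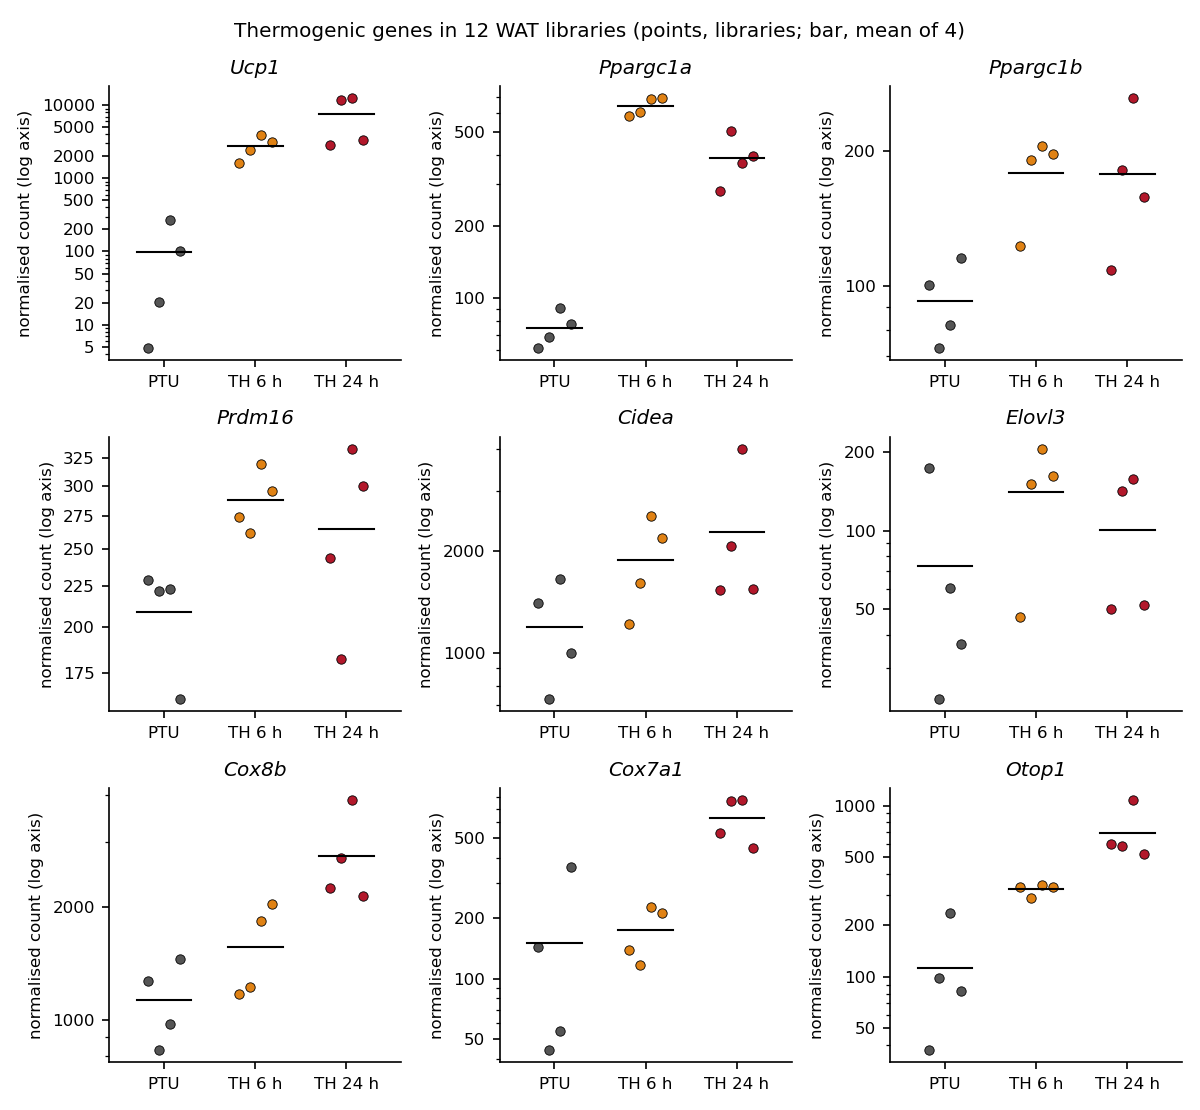
Normalised counts of the 9 thermogenic genes in the 12 WAT libraries (points, 1 per library in replicate order; bars, mean of 4; vertical axes logarithmic, each gene on its own range). Ucp1 lay between 4.80 and 268 in PTU and between 1641 and 12352 after TH, whereas the points of Elovl3 and Cidea overlapped between PTU and both TH groups.

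Ucp1 (chromosome 8, 83290352 to 83298452, plus strand, GRCm38) encodes the uncoupling protein itself. Its normalised counts were 4.80, 20.4, 268 and 101 in PTU replicates 1 to 4, 1641, 2441, 3941 and 3107 at TH 6 h, and 2877, 11616, 12352 and 3321 at TH 24 h. Every TH library stood above every PTU library, as was so for 7.85% of all genes tested at 6 h and 8.99% at 24 h. The PTU libraries spread over the widest relative range of any of the 9 genes (coefficient of variation 122%), and the lowest of them rests on 5 raw counts. At 24 h the libraries formed a high pair, replicates 2 and 3, and a low pair, replicates 1 and 4, and the low pair lay within the range of TH 6 h. The log2 change from PTU was 4.80 ± 0.90 at 6 h (SE, n = 4 each; 95% interval 2.84 to 6.76; edgeR quasi-likelihood test, adjusted p = 0.00808) and 6.24 ± 0.96 at 24 h (4.16 to 8.32; adjusted p = 0.0011). The 24 h and 6 h groups overlapped, and the difference of 1.44 ± 0.77 between them did not pass the edgeR test (adjusted p = 0.278, interval -0.23 to 3.11). Ucp1 was called at both times whichever single library was left out. PTU replicate 3, which had the highest PTU value, moved the estimate most, to 6.09 at 6 h and 7.53 at 24 h without it.

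Ppargc1a (chromosome 5, 51454250 to 51567726, minus strand) encodes PGC-1alpha, a coactivator that drives mitochondrial biogenesis and the thermogenic programme. It had 61.5, 68.2, 90.2 and 77.5 normalised counts in PTU, 583, 602, 687 and 689 at TH 6 h, and 281, 504, 370.4 and 393 at TH 24 h. The 3 groups did not overlap, and the order was PTU, TH 24 h, TH 6 h. The coefficient of variation was 16.7% in PTU, 8.67% at TH 6 h and 23.8% at TH 24 h. Relative to PTU, the log2 change was 3.10 ± 0.18 after 6 h and 2.38 ± 0.18 after 24 h (edgeR, adjusted p = 1.24e-06 and 8.87e-06). From 6 h to 24 h Ppargc1a fell by 0.73 ± 0.16 on the log2 scale (edgeR, adjusted p = 0.0199), the only one of the 9 genes called lower in that comparison, in which 7.41% of all genes tested passed (4.35% lower, 3.07% higher) and 11.8% were lower with no overlap. That fall missed the threshold without TH 6 h replicate 4, TH 24 h replicate 3 or TH 24 h replicate 4 (adjusted p = 0.0513, 0.0522 and 0.0502), and with the muscle or the epithelial markers as a covariate (adjusted p = 0.0639 and 0.346).

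Ppargc1b, on chromosome 18, encodes PGC-1beta, the close relative of PGC-1alpha. It had 101, 73.0, 82.1 and 116 normalised counts in PTU, 123, 191, 205 and 196 at TH 6 h, and 109, 181, 261 and 158 at TH 24 h. The 6 h libraries stood above all PTU libraries, while TH 24 h replicate 1 lay below PTU replicate 4. Its log2 changes were 0.95 ± 0.25 and 0.93 ± 0.25 (edgeR, adjusted p = 0.0421 and 0.0249), and the 2 times differed by -0.01 ± 0.25 (interval -0.55 to 0.52). These calls were fragile. At 6 h Ppargc1b lost its call without PTU replicate 2 or 3 (adjusted p = 0.112 and 0.072), TH 6 h replicate 2, 3 or 4 (0.0911, 0.098 and 0.0971) or TH 24 h replicate 4 (0.0581). At 24 h it did so without PTU replicate 2 or 3 (0.0783 and 0.0581) or TH 24 h replicate 2 or 3 (0.0517 and 0.0801). With the epithelial markers as a covariate it was called at neither time (adjusted p = 0.076 and 0.119), and with the replicate number as a block not at 6 h (0.0643). Pprc1, the third member of this coactivator family, rose from 251 ± 35.7 to 384 ± 37.8 normalised counts at 6 h and 422 ± 77.9 at 24 h (SD, n = 4 each; edgeR, log2 changes 0.61 and 0.75, adjusted p = 0.0249 and 0.00423).

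Prdm16 (chromosome 4, 154316125 to 154636873, minus strand) encodes the transcriptional coregulator that fixes brown and beige fate. It had 229, 221, 223 and 162 normalised counts in PTU, 274, 262, 319 and 296 at TH 6 h, and 244, 182, 333 and 299.9 at TH 24 h. All 4 TH 6 h libraries lay above the PTU libraries, whereas those of TH 24 h overlapped with them. The log2 change was 0.46 ± 0.17 at 6 h (edgeR, adjusted p = 0.128, interval 0.08 to 0.84) and 0.34 ± 0.17 at 24 h (adjusted p = 0.201, interval -0.04 to 0.72), and neither passed. Without TH 24 h replicate 2, the lowest of its group, both did (log2 0.48 and 0.49, adjusted p = 0.0479 and 0.0421). Prdm16 shares 109 exonic bases with B230104I21Rik on the opposite strand, and the strand setting of the counting is not given in the sources used here, so part of its count could belong to that gene.

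Otop1 (chromosome 5, 38275972 to 38304217, plus strand) encodes a proton channel of the otopetrin family that is enriched in brown fat. It had 37.5, 98.2, 236 and 82.4 normalised counts in PTU, 334, 289.6, 345 and 333 at TH 6 h, and 597, 579.9, 1072 and 523 at TH 24 h. The 3 groups did not overlap and the level was higher at each later time. Otop1 rose by a log2 of 1.51 ± 0.41 at the first time and 2.60 ± 0.42 at the second (edgeR, adjusted p = 0.0456 and 0.00153). The 6 h call was narrow. It was lost without PTU replicate 2 or 4 (adjusted p = 0.113 and 0.1), any of TH 6 h replicates 1 to 4 (0.0884, 0.0753, 0.0905 and 0.0919) or TH 24 h replicate 1, 2 or 4 (0.063, 0.0507 and 0.0591), with the epithelial covariate (0.076) and with the 2 groups fitted alone (0.085), while the 24 h call held whichever library was left out. The step from 6 h to 24 h, 1.09 ± 0.40, had an edgeR adjusted p of 0.114, although the groups were separate, as were 10% of all genes in the same direction. That step passed without PTU replicate 1 or 3 (adjusted p = 0.0421 and 0.0322), with the 2 groups fitted alone (0.0116) and by DESeq2 (0.0418). Without PTU replicate 3, the highest PTU library, the log2 changes from PTU became 2.18 at 6 h and 3.27 at 24 h.

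Cox8b and Cox7a1 encode tissue-restricted subunits of cytochrome c oxidase, the last complex of the respiratory chain, which replace the widespread Cox8a and Cox7a2 in brown fat, heart and skeletal muscle. Cox8b (chromosome 7, 140898945 to 140900446, minus strand) had 1268, 831, 975 and 1456 normalised counts in PTU, 1169.9, 1228, 1841 and 2046 at TH 6 h, and 2260.1, 2715, 3865 and 2150.3 at TH 24 h. The TH 24 h libraries stood above all others, and those of TH 6 h overlapped with PTU. Against PTU, Cox8b differed by a log2 of 0.47 ± 0.24 at 6 h and 1.28 ± 0.24 at 24 h, and by 0.81 ± 0.24 between the TH groups (edgeR, adjusted p = 0.238, 0.00398 and 0.0616).

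Cox7a1 (chromosome 7, 30184144 to 30186078, plus strand) had 143, 44.3, 55.0 and 359 normalised counts in PTU, 139, 117, 228 and 212 at TH 6 h, and 531, 762, 768 and 445 at TH 24 h. Its PTU values split the way the muscle markers did, with replicates 1 and 4 high. All TH 24 h libraries were above every other library. The log2 change was 0.22 ± 0.52 at 6 h (edgeR, adjusted p = 0.818, interval -0.91 to 1.35), 2.07 ± 0.53 at 24 h (adjusted p = 0.0182) and 1.85 ± 0.52 from 6 h to 24 h (adjusted p = 0.0498). Without PTU replicate 4 the 24 h change became 2.95. The call between 6 h and 24 h was lost without PTU replicate 1 (adjusted p = 0.0505), any of TH 6 h replicates 1 to 4 (0.127, 0.123, 0.0738 and 0.0913) or any of TH 24 h replicates 1 to 4 (0.0813, 0.109, 0.109 and 0.0736). It was also lost with muscle or epithelial markers as a covariate (edgeR, log2 1.03 and 2.57, adjusted p = 0.171 and 0.228). The epithelial markers were themselves lower at 24 h than at 6 h, so the loss with that covariate cannot be told apart from an effect of time.

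The ubiquitous partners were not called. The log2 change of Cox8a was -0.11 ± 0.12 at 6 h and -0.10 ± 0.12 at 24 h (edgeR, adjusted p = 0.576 and 0.568), and that of Cox7a2 was -0.26 ± 0.13 and 0.01 ± 0.13 (adjusted p = 0.244 and 0.957). Set per kilobase of exon, Cox8b made up 22.2, 14.2, 19.3 and 23.8% of Cox8a plus Cox8b in PTU, 23.7, 25.3, 28.1 and 30.2% at TH 6 h, and 35.7, 40.5, 45.6 and 33.6% at TH 24 h. Every TH 24 h library thus had a larger Cox8b share than every other library (exact two-sided permutation test against PTU and against TH 6 h, p = 0.0286 each, the smallest that 4 against 4 libraries can give), and at 6 h the difference had an exact p of 0.0571. The Cox7a1 share of Cox7a1 plus Cox7a2 was 7.67, 2.19, 3.62 and 14.6% in PTU, 9.01, 8.42, 12.2 and 10.7% at TH 6 h, and 24.8, 29.1, 27.5 and 19.5% at TH 24 h. Here too the 24 h libraries were all higher than the rest (exact p = 0.0286 against each group), and TH 6 h overlapped with PTU (exact p = 0.314). Adjusted over these 6 tests, p = 0.0286 becomes 0.0429 and p = 0.0571 becomes 0.0686 (exact permutation tests with Benjamini-Hochberg adjustment).

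Muscle markers varied with Cox7a1, and their part in its values was not tested beyond what follows. With group means removed, the mean log2 CPM of the muscle list and Cox7a1 correlated over the 12 libraries (Pearson r = 0.82, exact permutation p = 0.0267, adjusted over the 9 genes 0.24; Spearman rho = 0.83, exact permutation p = 0.0419, adjusted 0.377; r = 0.73 without the 2 libraries with the most extreme scores), and for the other 8 genes r lay between -0.55 and 0.48. By edgeR none of the 23 muscle markers was called at 6 h (7 were lower at an unadjusted p under 0.05) and 2 were called lower at 24 h, with a median log2 change of -2.86 and -0.53. Over all genes tested, 7.23% and 17.1% were called in either direction at those times. From 6 h to 24 h 20 of the 23 were higher, with a median log2 change of 2.36, and none was called. Without PTU replicates 1 and 4, a choice made after the data were seen, Cox7a1 rose at both times (log2 1.81 and 3.65, edgeR adjusted p = 0.0119 and 0.000151), and Otop1 lost its 6 h call (log2 0.96, adjusted p = 0.13). With the muscle score as a covariate the Cox7a1 change had an edgeR adjusted p of 0.0964 at 6 h (log2 1.16) and of 0.00101 at 24 h, and the counts of called genes stayed at 4 and 6. The Cox8b step from 6 h to 24 h was 0.62 with that covariate (edgeR, adjusted p = 0.229).

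**Figure D2:**
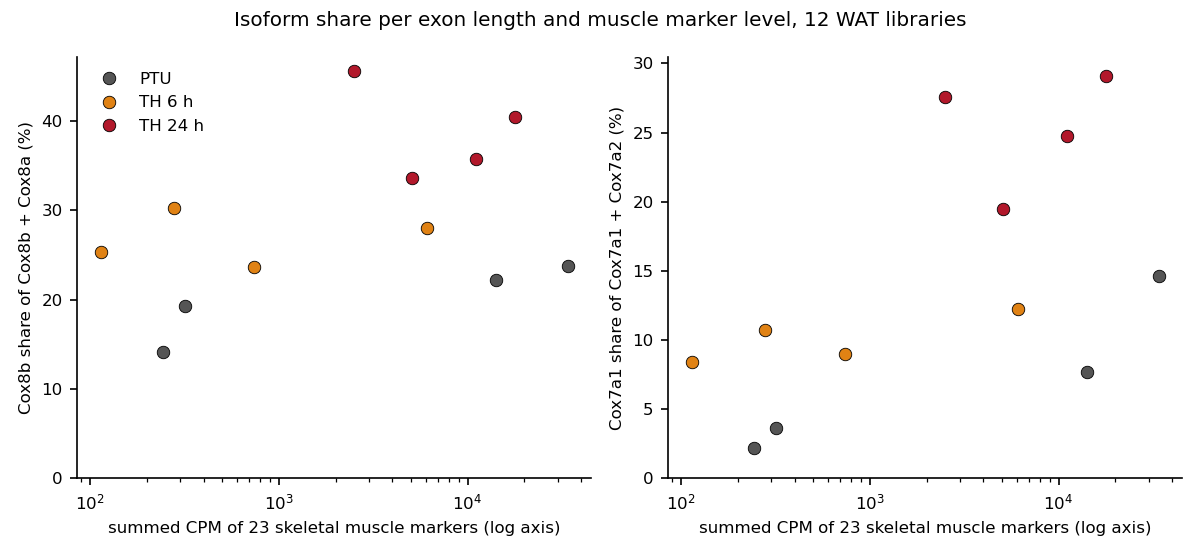
Share of Cox8b (left) and of Cox7a1 (right) in the sum with the ubiquitous isoform, per exon length in percent, against the summed CPM of 23 skeletal muscle markers on a log axis, for the 12 WAT libraries. The 4 TH 24 h libraries lie above all others in both panels, at 2505 to 17948 CPM of muscle markers, a range that reaches above that of PTU replicate 1 (14137).

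Cidea and Elovl3, both lipid-handling genes, showed no call in WAT. Cidea, on chromosome 18, encodes a protein of the lipid droplet surface and had 1406, 730.3, 1648 and 999 normalised counts in PTU, 1214, 1606, 2536 and 2179 at TH 6 h, and 1534, 2065, 3993 and 1544 at TH 24 h. Its log2 changes of 0.65 ± 0.34 and 0.93 ± 0.34 had edgeR adjusted p-values of 0.25 and 0.0811, with intervals from -0.09 to 1.40 and from 0.19 to 1.68. DESeq2 called the 24 h change (adjusted p = 0.027), as did edgeR with the replicate number as a block (0.0497). Elovl3 (chromosome 19, 46131897 to 46135694, plus strand), an elongase of very long chain fatty acids, had 174, 22.7, 60.5 and 36.9 normalised counts in PTU, 47.0, 151, 205 and 162 at TH 6 h, and 50.2, 142, 158 and 52.0 at TH 24 h. PTU replicate 1 exceeded every other library except TH 6 h replicate 3, so PTU overlapped with both TH groups. The log2 change of Elovl3 was 0.93 ± 0.61 at 6 h and 0.44 ± 0.61 at 24 h (edgeR, adjusted p = 0.358 and 0.657), and the intervals, -0.39 to 2.25 and -0.89 to 1.76, leave room for a sizeable change in either direction. Without PTU replicate 1 the changes became 1.81 and 1.30 (adjusted p = 0.0639 and 0.116), and without any other single library they lay between 0.64 and 1.23 at 6 h and between 0.14 and 0.66 at 24 h. Elovl3 shares 10 exonic bases with Pitx3 on the opposite strand.

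**Figure D3:**
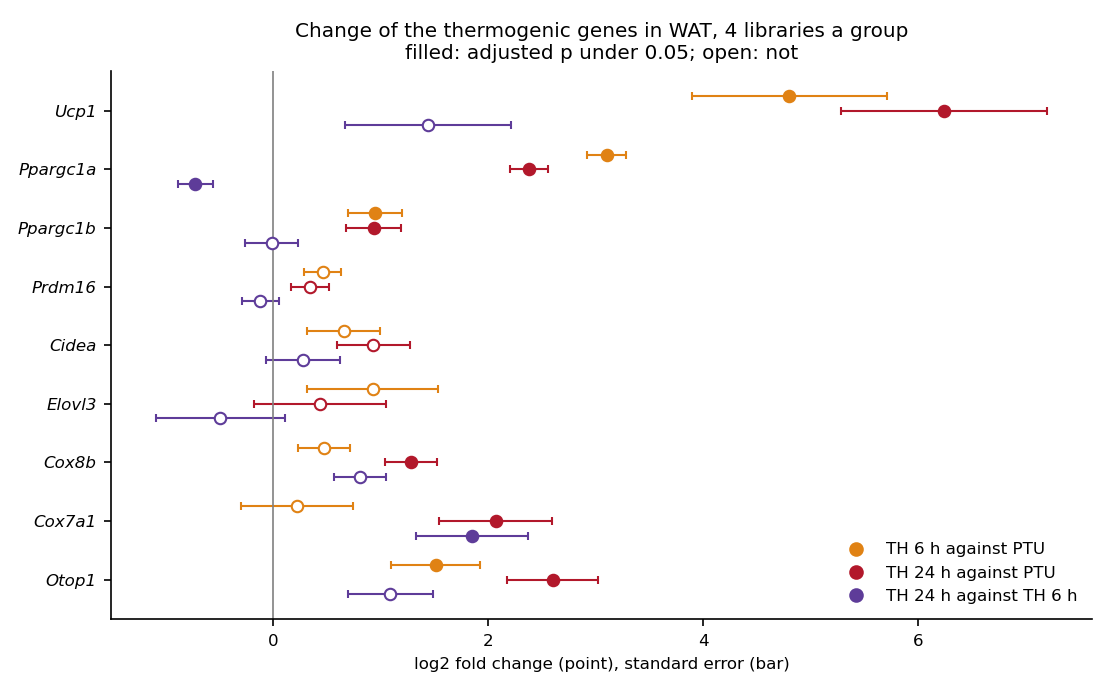
Log2 fold change (points) with its standard error (bars) for the 9 genes in the 3 WAT comparisons, 4 libraries a group; filled points passed the edgeR test at an adjusted p under 0.05. Ucp1 reached 4.80 and 6.24, Ppargc1a was higher at 6 h (3.10) than at 24 h (2.38), and Cox8b, Cox7a1 and Otop1 had larger changes at 24 h than at 6 h.

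The order of the levels changed with TH. In CPM per kilobase of exon, the PTU libraries had most Cox8b (146 ± 36.5, SD, n = 4), then Cidea (49.9 ± 17.1), Cox7a1 (13.1 ± 12.7) and Ucp1 (2.80 ± 3.43). Elovl3, Otop1, Ppargc1b, Prdm16 and Ppargc1a followed at 1.73, 1.53, 1.08, 1.04 and 0.525, and from Cidea downwards each gene overlapped in range with the next, except that Prdm16 and Ppargc1a did not overlap. At TH 6 h Ucp1 (79.2 ± 27.8) and Cidea (78.7 ± 24.6) were level with each other, below Cox8b (203 ± 56.8) and above Cox7a1 (15.1 ± 4.72). At TH 24 h the order was Cox8b (355 ± 101), Ucp1 (215 ± 146), Cidea (95.4 ± 48.7), Cox7a1 (54.5 ± 14.3) and Otop1 (9.38 ± 3.44), with the ranges of Cox8b and Ucp1, of Ucp1 and Cidea and of Cidea and Cox7a1 overlapping. Ppargc1a, the lowest of the set in PTU, was level with Otop1 at 6 h (4.52 ± 0.392 and 4.40 ± 0.332) and below it at 24 h (2.73 ± 0.65).

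How far the other 8 genes varied with Ucp1 between replicates depended on the libraries used. With the group means removed, the deviation of Ppargc1a from its group mean followed that of Ucp1 over the 12 WAT libraries (Pearson r = 0.74, exact permutation p within groups 0.006, adjusted over 8 genes 0.048; Spearman rho = 0.78, exact permutation p = 0.0107, adjusted 0.0856). Without the 2 libraries farthest from the Ucp1 median, PTU replicates 1 and 2, r was 0.71 with an adjusted exact p of 0.188. That median was taken over all 12 libraries before the group means were removed. After removal the largest Ucp1 deviations were those of PTU replicates 1 and 3 (-2.74 and 2.57), with replicate 2 at -1.02. The adjusted exact p was 0.0625 to 0.208 without any single one of the 4 PTU libraries, the 4 TH 6 h libraries or TH 24 h replicates 1 and 2. Without TH 24 h replicate 3 or 4 the relation still passed (adjusted exact p = 0.0185 and 0.037). Otop1 had a higher r of 0.82 that did not pass (exact permutation p = 0.0528, adjusted 0.211; rho = 0.45, exact permutation p = 0.247, adjusted 0.395; r = 0.65 without the 2 farthest). The other 6 genes had r between -0.18 and 0.46 and rho between -0.09 and 0.55, with adjusted p-values of 0.296 or more.

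The PTU libraries weigh heavily in these values, since they hold 77.8% of the within-group sum of squares of Ucp1 and 83.1% of that of Otop1. In PTU replicate 1 Ucp1 was lowest (4.80) while Elovl3 was highest (174), and without that 1 library the r of Cidea with Ucp1 went from 0.46 to 0.85 and that of Elovl3 from 0.06 to 0.84 (adjusted exact p = 0.00347 and 0.00231). Without the 2 farthest libraries they were 0.87 and 0.90 (adjusted exact p = 0.0104 and 0.00694). In the 8 TH libraries alone, a choice made after the data were seen, r with Ucp1 was 0.91 for Elovl3, 0.86 for Ppargc1b, 0.85 for Cidea, 0.80 for Cox7a1, 0.79 for Cox8b, 0.69 for Ppargc1a, 0.57 for Otop1 and -0.02 for Prdm16. In the same order these values ranked 139, 342, 375, 599, 716, 1391, 2498 and 9445 among 17927 genes, so many other genes had an r as high. Replicate 3 of TH 6 h and replicate 3 of TH 24 h had the highest Ucp1 of their groups, and they also had the highest Cidea, Elovl3, Ppargc1b and Prdm16. The r of Prdm16 with Ucp1 lay between -0.18 and 0.16 in these settings.

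**Figure D4:**
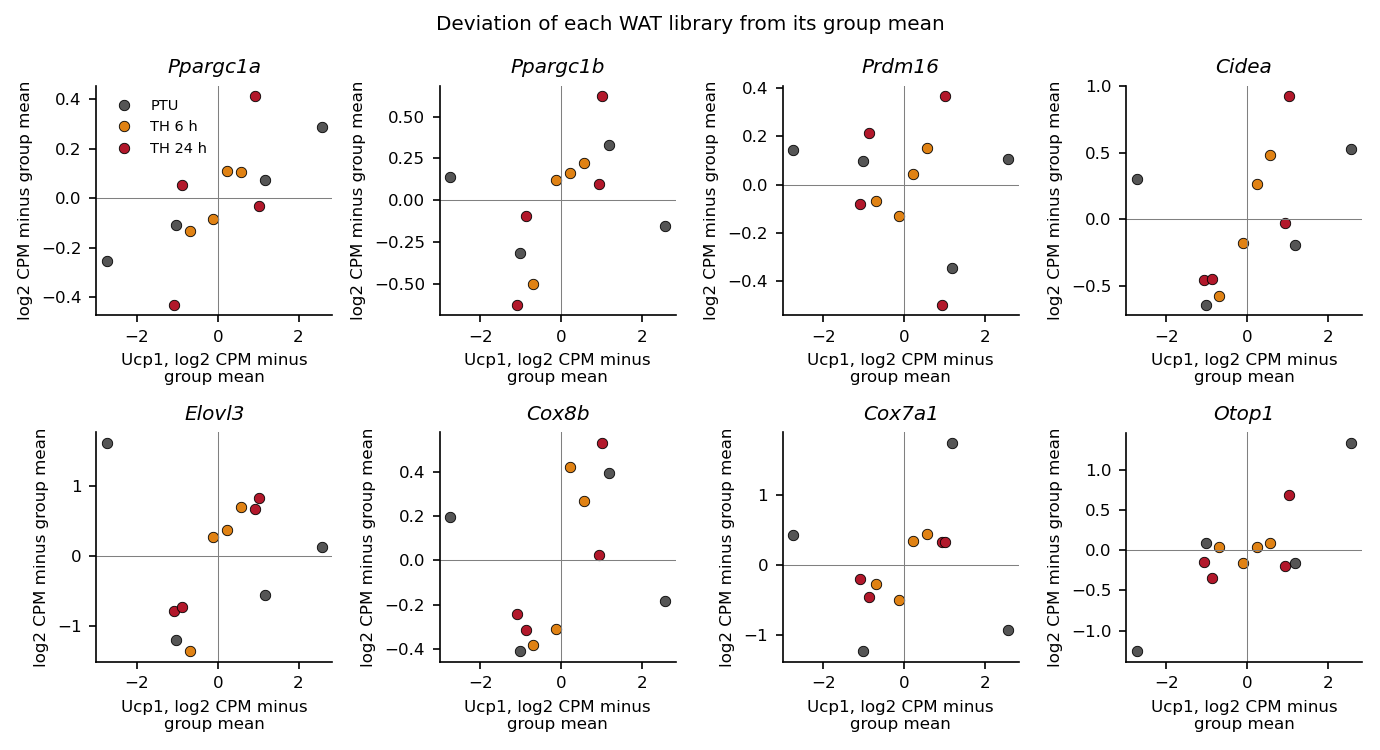
Deviation of each WAT library from its group mean (log2 CPM) for 8 thermogenic genes against that of Ucp1, 12 libraries coloured by group. Over the 12 libraries Ppargc1a had an r of 0.74 with Ucp1, but the TH 24 h library with most Ucp1, replicate 3, lay at -0.03 for Ppargc1a. For Elovl3 and Cidea the PTU library with the least Ucp1 departs from the line of the other points.

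The 10 genes outside the set with the deviations most like those of Ucp1 over the 12 libraries were Prdm9, Hdac8, Gtse1, Rbbp6, Mir5125, Fam117a, Jun, Dph2, Gm16675 and Rcc1, with r from 0.84 to 0.93 among 17927 genes. Otop1 ranked 16 and Ppargc1a 86 on that scale, while Cidea ranked 1736, Ppargc1b 3023, Cox8b 3935, Cox7a1 6286, Elovl3 7450 and Prdm16 11700. In the 8 TH libraries alone the 10 were Pnpla2, Cpt1b, Elane, Lactb, Tgoln1, Abhd5, Calr, Chkb, Gm10603 and Nxnl1, with r from 0.97 to 0.99. These are the closest of many genes over few libraries, and no test was made on them.

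Other genes of the thermogenic pathway moved too. Of a list of 46 regulators, fuel enzymes and brown fat markers, 43 were tested in WAT, 12 were called higher and 1 lower at 6 h, and 20 higher and 4 lower at 24 h, where the called share of all genes tested was 7.23% (4.18% higher) and 17.1% (7.45% higher). From 6 h to 24 h 3 were higher and 40 were not called, beside 7.41% called over all genes. The median log2 change of the list was 0.32 at 6 h and 0.52 at 24 h, where 32 of the 43 had a positive change. Some genes of the list were lower at 24 h, with ranges apart from PTU. In CPM per kilobase of exon, Acot2 had 11.3 to 12.4 in PTU and 4.44 to 7.69 at TH 24 h. Pparg had 72.1 to 109 and 42.5 to 65.2, and Mtus1 12.5 to 15.5 and 7.17 to 10.6. These examples were chosen after their levels were seen. The pathway genes described next were all called higher at 6 h or 24 h. Dio2, the T4-activating deiodinase, had 6.72, 5.99, 17.1 and 8.61 normalised counts in PTU, 348, 302, 496 and 465 at TH 6 h, and 113, 813, 602 and 70.8 at TH 24 h. Both TH groups lay above PTU, and at 24 h replicates 2 and 3 were again the high pair, as for Ucp1. Its log2 change was 5.33 ± 0.79 at 6 h and 5.32 ± 0.80 at 24 h (edgeR, adjusted p = 0.00184 and 0.000896).

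Acot11, a brown fat thioesterase that releases fatty acids from coenzyme A, rose with a log2 change of 3.40 ± 0.37 at 6 h and 5.19 ± 0.39 at 24 h, and was higher at 24 h than at 6 h (1.79 ± 0.32, edgeR adjusted p = 0.00727). Pank1, the first enzyme of coenzyme A synthesis, rose by 2.26 ± 0.27 and 2.28 ± 0.27, and the nuclear receptor Esrrg by 1.70 ± 0.36 and 2.01 ± 0.37 (edgeR, each adjusted p under the threshold). Ppara, the receptor that turns on fatty acid oxidation, rose from 46.7 ± 22.5 to 200.1 ± 33.7 normalised counts at 6 h (log2 2.08 ± 0.43, edgeR adjusted p = 0.0125), and had 80.8 ± 56.0 at 24 h, where it overlapped with PTU (log2 0.77 ± 0.43, adjusted p = 0.237). At 24 h Pdk4, a brake on glucose oxidation, rose by 2.77 ± 0.65, the brown fat receptor P2rx5 by 2.15 ± 0.20, the adipogenic factor Cebpb by 1.67 ± 0.22 and Cpt1b by 1.52 ± 0.46 (edgeR, adjusted p = 0.012, 3.33e-05, 0.000407 and 0.0397). Cpt1b is the muscle form of its enzyme and is also abundant in skeletal muscle, and its PTU values were high in the muscle-rich replicates 1 and 4 (487 and 662, against 107 and 334 in the others).

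Relatives of the thermogenic genes were called as well. Of 13 tested, 3 were higher at 6 h, and 6 were higher and 1 lower at 24 h, beside 7.23% and 17.1% of all genes called at those times. Ucp3, the muscle-type uncoupling protein, had 549.5, 503, 531 and 409 normalised counts in PTU, 1746, 1284, 1901 and 1614 at TH 6 h, and 2219, 2682, 3499 and 2509 at TH 24 h, with no overlap between the 3 groups. Its log2 change was 1.71 ± 0.16 at 6 h and 2.45 ± 0.16 at 24 h (edgeR, adjusted p = 5.22e-05 and 3.82e-06). Ucp3 is also abundant in skeletal muscle, and the part of muscle RNA in its values was not tested. Ucp2, the widely expressed uncoupling protein relative, rose by 0.54 ± 0.14 and 0.65 ± 0.14. Cidec, the lipid droplet protein of large white fat cells and a relative of Cidea, fell by 1.87 ± 0.34 on the log2 scale at 24 h, from 43647 ± 21554 to 11977 ± 5014 normalised counts (edgeR, adjusted p = 0.00308). Cideb, the third of these droplet proteins, rose by 1.36 ± 0.35, and the elongases Elovl5 and Elovl6 by 1.13 ± 0.18 and 0.83 ± 0.25 at 24 h.

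Lists of adipocyte identity markers were also examined. Of 10 genes proposed as beige markers, edgeR called none higher (1 at 6 h and 2 at 24 h had an unadjusted p under 0.05) and 1 lower at each time. That gene, named because it was the only one called, was Klhl13, with 544 ± 83.2 normalised counts in PTU, 307 ± 24.1 at 6 h and 268 ± 27.7 at 24 h (log2 -0.83 and -1.02, edgeR adjusted p = 0.00178 and 0.000201). Of the 6 tested markers of classical brown depots, edgeR called 1 lower at 6 h, and 1 higher and 1 lower at 24 h. Over all genes tested, 7.23% and 17.1% were called. At an unadjusted p under 0.05, 3 of the 6 were higher and 2 lower at 6 h, and 1 was higher and 1 lower at 24 h. Lhx8, named after its values were seen, was lower at both times (112 ± 45.3, 26.6 ± 5.88 and 28.5 ± 12.2 normalised counts) and Fbxo31, chosen in the same way, was higher at 24 h (430.2 ± 86.8 in PTU and 914 ± 368). No white adipocyte marker of 10 was called at 6 h by edgeR (2 were lower at an unadjusted p under 0.05), and 5 were called lower at 24 h, with a median log2 change of -0.56. The summed beige marker level was 165 to 178 CPM in PTU, 150.1 to 196 at TH 6 h and 149 to 198 at TH 24 h, so those ranges overlapped.

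In striatum the picture was narrow. Ucp1, Otop1, Elovl3, Cox8b and Cox7a1 had at most 7.14 normalised counts in any of the 10 libraries and were not tested. Ucp1 was at 0 to 2 raw counts per library. Cidea, with 2.38 to 23.6 normalised counts, changed by 0.67 ± 0.65 at 12 h and 0.05 ± 0.68 at 24 h, which at this depth covers both a rise and a fall (95% intervals -0.76 to 2.10 and -1.45 to 1.56).

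Ppargc1a was well expressed in striatum. It had 345 and 338 normalised counts in the 2 PTU libraries, 513, 507, 479 and 684 at TH 12 h, and 475, 438, 542 and 469 at TH 24 h. Both TH groups lay above PTU, as did 18.9% of all genes at 12 h and 9.7% at 24 h. The log2 change was 0.68 ± 0.15 at 12 h (edgeR, unadjusted p = 0.000833, adjusted p = 0.0619) and 0.49 ± 0.15 at 24 h (unadjusted p = 0.00663, adjusted p = 0.287). Of 11 neuron markers, edgeR called none in striatum at either time, and 5 had a positive change at 12 h and 4 at 24 h (median log2 change -0.53 and -0.32). Slc17a7 and Drd2 were picked from this list by no fixed rule and do not stand for it. Slc17a7, a marker of cortical excitatory neurons, had 3509 and 1814 normalised counts in PTU. It had 5026 to 9196 at TH 12 h, all above PTU as for 18.9% of all genes, and 2686 to 12586 at TH 24 h, overlapping with PTU. Drd2, of striatal neurons, had 1313 and 2062 in PTU, 832 to 1421 at TH 12 h and 31.4 to 2151 at TH 24 h, with overlap at both times. The part of these marker levels in the Ppargc1a values was not tested. None of the 4 tested genes was called at either time by edgeR, while the called share of all genes tested was 0.96% at 12 h and 0.348% at 24 h. At an unadjusted edgeR p under 0.05 it was 1 of 4 at each time, Ppargc1a, a count that cannot be set against those adjusted shares. DESeq2 called Ppargc1a at 12 h (adjusted p = 0.00513) and none at 24 h. Leaving out TH 24 h replicate 2, whose 31.4 normalised counts of the striatal receptor gene Drd2 stood far below the 832 to 2151 of the other libraries, brought the 12 h change of Ppargc1a past the threshold (0.67, edgeR adjusted p = 0.022). All 4 TH 24 h libraries were among those with high Xist, against 1 of the 4 at TH 12 h, and with Y-linked counts as a covariate the Ppargc1a changes were 0.65 and 0.53 (adjusted p = 0.0951 and 0.391).

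The other coactivator and Prdm16 overlapped between groups in striatum. Ppargc1b had 89.1 and 94.96 normalised counts in PTU and 76.2 to 112 after TH, with log2 changes of 0.06 ± 0.17 and -0.08 ± 0.17. Prdm16 had 116 and 137 in PTU and 93.0 to 149.7 after TH, with changes of 0.03 ± 0.16 and -0.28 ± 0.16 (edgeR, adjusted p = 0.934 and 0.614). Of 5 genes of TH response and reception kept as a check, Hr and Klf9 were called higher in striatum at both times, while Thrsp, Thra and Thrb were not called at either. Hr went from 48.1 ± 13.2 to 271 ± 22.7 and 310.5 ± 55.8 normalised counts.

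The time point shared by the tissues, 24 h, allowed the responses to be compared. On the log2 scale Ppargc1a rose more in WAT than in striatum, by 1.89 ± 0.24 (edgeR interaction of tissue and hormone, adjusted p = 9.73e-05), 1 of the 656 genes called (5.14% of 12766). The difference is one of ratios to PTU, and WAT started lower. In CPM per kilobase of exon the mean of Ppargc1a went from 0.525 to 2.73 in WAT and from 5.51 to 7.76 in striatum. The striatum change rests on 2 PTU libraries. Leaving out any 1 of the 22 libraries kept the call, with a difference between 1.73 and 2.03. For Ppargc1b the difference was 1.02 ± 0.34 (adjusted p = 0.0903), for Prdm16 0.63 ± 0.25 (adjusted p = 0.16) and for Cidea 0.87 ± 0.99 (adjusted p = 0.664), and none passed. Ppargc1b passed without WAT TH 24 h replicate 1 (1.20, adjusted p = 0.0331) and Prdm16 without WAT TH 24 h replicate 2 (0.78, adjusted p = 0.0411). The tissues stand in separate count tables with different PTU numbers, so tissue and any difference in preparation cannot be told apart.

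**Figure D5:**
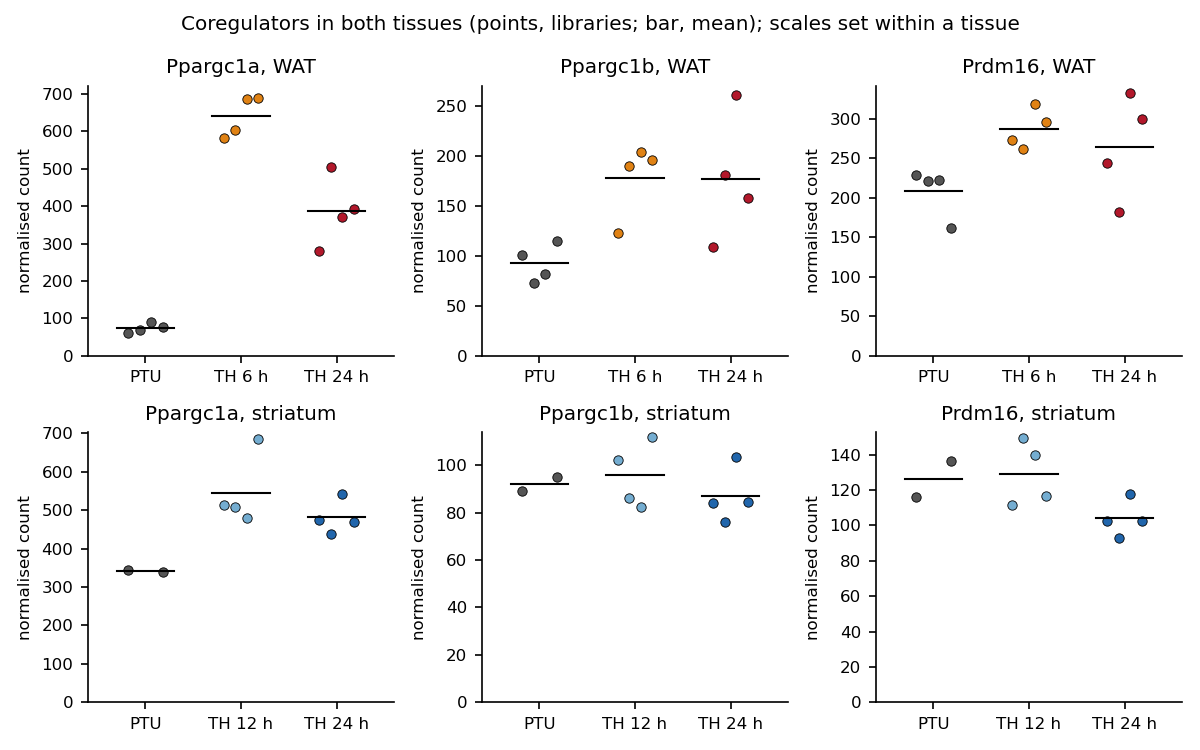
Normalised counts of Ppargc1a, Ppargc1b and Prdm16 in the WAT libraries (upper row) and striatum libraries (lower row), points per library and bars for means, each tissue scaled on its own. Ppargc1a went from 61.5 to 90.2 in PTU to 583 to 689 at TH 6 h in WAT, and from 338 and 345 to 479 to 684 at TH 12 h in striatum.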

How the data were processed

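The authors aligned the reads to GRCm38 (mm10) with Bowtie (Bowtie2 2.2.6.2 in the submitters' processing notes), removed alignments of low quality and counted reads per gene with htseq-count. The deposited values are raw counts per gene symbol. The annotation release and the strand setting are not given in the sources used here.

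Rows whose symbols had become dates were dropped (15 in WAT and 14 in striatum, up to 0.0825% and 0.201% of a library). In WAT, 86 rows copied the counts of another row within 2% (6.09% of counts), and no thermogenic gene was among them. Each tissue was fitted in 1 edgeR 4.0.16 quasi-likelihood model (R 4.3.3) with TMM scaling over its groups, for genes with a mean normalised count above 10, and p-values were adjusted by Benjamini-Hochberg over all genes tested. The threshold was an adjusted p of 0.05, with no fold limit. No share of all genes at an unadjusted edgeR p under 0.05 was computed, so counts at that level stand without one. Normalised counts are counts over the TMM-scaled library size, brought back to the mean such size in the tissue. Errors of log2 changes are SE and those of levels are SD. The tissue difference was an interaction fitted over both tissues. Covariation used log2 CPM (prior count 2) with group means removed and 13824 exact permutations within groups. Gene lengths and coordinates came from GENCODE vM21 on GRCm38. The scripts were tested on simulated data.

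The thermogenic genes, the other gene lists and the tests were chosen with earlier results of these data known. All 9 thermogenic genes were named, with up to 8 called pathway genes at 24 h and 5 at 6 h by size of change. Some pathway genes with lower levels at 24 h were also named, chosen after their values were seen. The called relatives with Cox8a and Cox7a2 and the 10 genes most like Ucp1 were named too. DESeq2 1.42.0, RLE scaling, other filters, covariates, smaller sample sets and the replicate number as a block were alternatives. The replicate numbers showed no clear pairing of the WAT libraries: same-numbered libraries correlated at -0.47 to 0.39 over 12 pairs, and 2 of 12 libraries were most like one of their own number. Whether same-numbered libraries shared a batch cannot be told from so few libraries. Replicate libraries differed beyond counting noise (chi-square per degree of freedom 10.8 to 96.1 over 18 WAT pairs).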

Additional observations from a re-analysis of the deposited data

Results flagged for a closer look

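Among 35 groups of 4 libraries examined for a library far from the other 3 by Dixon's test, 4 stood out, and chance gives about 1 in 20. PTU replicate 4 had 162 normalised counts of Prdm16 in WAT, with the next lowest PTU library at 221. TH 6 h replicate 1 had 123 normalised counts of Ppargc1b in WAT, below 191 in the next. TH 24 h replicate 3 had 1072 normalised counts of Otop1 in WAT, above 597 in the next. In striatum, TH 12 h replicate 4 had 684 normalised counts of Ppargc1a, above 513 in the next.

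The 24 h response of Ppargc1a differed between the tissues, with a log2 change 1.89 higher in WAT (2.38) than in striatum (0.49) in the edgeR interaction test.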

How the results depend on the processing

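Of 985 values of single genes under an alternative, 870 kept direction and side of the threshold, 59 fell below it, 29 moved past it and 27 reversed. The cause was not tested for any. From 6 h to 24 h, the 2 thermogenic genes called became 1 with RLE scaling, without copied and mitochondrial rows or with the replicate block, 4 with DESeq2 or an exact permutation test (unadjusted), 0 with the muscle or epithelial covariate, and 0 to 3 without 1 library. At 6 h the 4 became 2 with the epithelial covariate and 2 to 4 without 1 library, and at 24 h the 6 became 5 to 6. In striatum at 12 h the 0 became 1 with DESeq2, with no filter or with 2 groups alone, and 0 to 1 without 1 library. The tissue difference called 1 to 2 without 1 library. The 1 gene called with Ucp1 became 0 with a prior count of 0.5 or RLE scaling, 2 without the 2 farthest libraries or with the muscle score removed, 4 in the 8 TH libraries, and 0 to 2 without 1 library.

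Over all genes, DESeq2 called 2106 at 6 h, 2165 from 6 h to 24 h, and 795 and 203 in striatum at 12 h and 24 h. The 2 groups alone gave 834, 2037 and 2444 in the 3 WAT comparisons, and 1442 and 0 in striatum. The epithelial covariate gave 672, 1696 and 110, the muscle covariate 561 from 6 h to 24 h, and exact permutation 2497 at 6 h and 3910 from 6 h to 24 h. With no filter striatum gave 308 and 104 and the tissue difference 424. The Y-linked covariate gave 80 and 3, and the 4 groups alone 242 for the tissue difference. Without 1 library the ranges were 684 to 1898, 1957 to 4264 and 661 to 2038 in WAT, 0 to 1257 and 0 to 115 in striatum, and 216 to 1085 for the tissue difference.

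Reversals without 1 library had these ranges of log2 change: Cox7a1 at 6 h -0.078 to 1.12, Ppargc1b, Prdm16 and Cidea from 6 h to 24 h -0.27 to 0.16, -0.26 to 0.0093 and -0.15 to 0.45, Prdm16 and Ppargc1b in striatum at 12 h -0.086 to 0.15 and -0.037 to 0.11, Cidea in striatum at 24 h -0.59 to 1.15, and its tissue difference -0.23 to 1.51. The r with Ucp1 ranged from -0.16 to 0.58 for Cox7a1 and from -0.066 to 0.84 for Elovl3, and without the 2 farthest libraries it was -0.0055 for Cox7a1 and 0.16 for Prdm16.

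With the replicate block in WAT, 3, 7 and 1 thermogenic genes were called at 6 h, at 24 h and from 6 h to 24 h, and 778 of all genes in the last. Ppargc1b lost its 6 h call (adjusted p = 0.0643), Cidea gained one at 24 h (0.0497) and Cox7a1 lost that from 6 h to 24 h (0.068). In striatum no such block could be fitted, since the PTU libraries are numbered 3 and 6 and share only number 3 with the TH groups. The low PTU counts of Ucp1, down to 5, limit the precision of its fold change.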
